A study of Mus musculus with 74 samples.

Results

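*mt-TR*, the mitochondrial tRNA for arginine, was followed as fragments in the lungs of 2 reciprocal mitochondrial-nuclear exchange (MNX) strains, CH and HC, in the 6 female libraries that the labels place in batch 1. They were chosen by genotype and batch alone, 3 of each genotype among the 74 libraries of the series, and they held 977 of its 5606 reads (17.4%). In the name of an MNX strain, the first letter gives the nuclear genome and the second the mtDNA, with C for C57BL/6J and H for C3H/HeN. CH therefore carried C57BL/6J nuclei with C3H/HeN mtDNA, and HC carried C3H/HeN nuclei with C57BL/6J mtDNA. The genomes differ on both sides of this contrast, so the nuclear and the mitochondrial contribution to any difference cannot be told apart from these 6 libraries. The mice were healthy adults kept without treatment, with no age given per library, and the small RNA of their lungs was sequenced without enzymatic pretreatment. The tissue is lung in the labels and the title but liver in the submitted design text, and a table of 1 tRNA holds no marker with which the tissue could be checked.

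Mitochondrial tRNAs deliver amino acids to the ribosomes of the organelle, and the arginine tRNA reads codons through the anticodon TCG. The molecule folds into an acceptor stem, a D-arm, an anticodon arm and a T-arm, and the CCA end that takes the amino acid is added after transcription. Pieces of tRNAs, called tRFs, are named by where they start and end. A 3′ fragment runs to the CCA end, and an internal fragment lacks both ends of the molecule.

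In GRCm38 (mm10), the gene spans 9808 to 9875 of chromosome M (+ strand, 68 nt, no intron) by the GENCODE annotation and lies between the coding genes *mt-Nd3* and *mt-Nd4l*. The mature molecules of the 2 mtDNA types are shown first, because they define every position used here. They are written as DNA with the run of T and A that separates them in capitals.
Mature *mt-TR* of C mtDNA (HC, 71 nt): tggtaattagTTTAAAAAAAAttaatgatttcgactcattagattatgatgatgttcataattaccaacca
Mature *mt-TR* of H mtDNA (CH, 73 nt): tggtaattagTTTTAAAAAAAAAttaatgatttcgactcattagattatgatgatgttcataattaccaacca
The run holds 3 T and 8 A in C mtDNA and 4 T and 9 A in H mtDNA, and lies in the D-arm. Only 3 of the 977 reads were of sequences that occur in 1 of the 2 mtDNA types, so nearly all reads compared here came from stretches that both strains share. Positions are those of C mtDNA, with CH aligned from the 3′ end. The D-arm took positions 10 to 22, the anticodon arm 24 to 40 with TCG at 31 to 33, the T-arm 45 to 60, and the 3′ strand of the acceptor stem with CCA 61 to 71.

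The fragments that carried most of the reads, or that set the genotypes apart in how often they recurred, are printed with the bases of the CCA end or of the TCG anticodon in capitals. The first 5 had the highest mean share of reads over the 6 libraries, and the last 3 were counted in every library of one genotype but not of the other.
Positions 48 to 71: gatgatgttcataattaccaaCCA
Positions 49 to 71: atgatgttcataattaccaaCCA
Positions 46 to 71: atgatgatgttcataattaccaaCCA
Positions 51 to 71: gatgttcataattaccaaCCA
Positions 52 to 71: atgttcataattaccaaCCA
Positions 48 to 70: gatgatgttcataattaccaaCC
Positions 46 to 70: atgatgatgttcataattaccaaCC
Positions 25 to 52 (chrM:9832-9859, + strand, within *mt-Tr*): atgattTCGactcattagattatgatga
The 7 pieces listed first start within an ATG repeat at positions 46 to 54, in the T-arm, and end at or next to the CCA end. The eighth starts in the anticodon stem and ends inside the same repeat.

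The deposited values are counts of reads per unique sequence. HC female replicates 1, 2 and 3 held 160, 139 and 238 *mt-TR* reads, and CH female replicates 1, 2 and 3 held 100, 149 and 191. The depth of the whole libraries is unknown, so every share below is a share of the library's *mt-TR* reads and says nothing of how abundant *mt-TR* fragments were. No 2 libraries had identical counts. Reads were 15 to 42 nt long, and 0 of 977 reads covered any of the first 12 positions of the molecule, which allows a share of up to 0.307%. The 5′ strand of the acceptor stem was thus not seen in either genotype at this depth.

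The libraries of the 2 strains differed in which part of the molecule their reads came from. CH reads came more from the T-arm and the 3′ terminus, and HC reads more from the anticodon arm. Reads that ended within the last 3 positions, called 3′ fragments here, made up 26.9%, 25.9% and 39.9% of the reads of HC replicates 1, 2 and 3 (43, 36 and 95 reads). In CH replicates 1, 2 and 3 they made up 60%, 50.3% and 78.0% (60, 75 and 149 reads). Every CH library lay above every HC library, and the highest HC library had a 95% Wilson interval of 33.9% to 46.25% against 42.4% to 58.25% in the lowest CH library. These intervals cover counting error only. The means were 30.9% ± 7.83 (SD, n = 3) in HC and 62.8% ± 14.05 in CH, a difference of 31.9 percentage points. With 3 libraries against 3, an exact two-sided permutation test cannot give a p below 0.1, and it gave 0.1 here (0.2 after Benjamini-Hochberg adjustment over the 12 measures compared). With each distinct sequence counted once in place of its reads, the shares were 23.5%, 22.2% and 22.7% in HC and 40%, 36.2% and 41.2% in CH, still without overlap but with a difference of 16.3 points (exact permutation p = 0.1). Nothing in the labels says that the libraries came from separate animals, and they state that intact RNA samples were pooled, so these p-values measure the spread between libraries only.

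**Figure D1:**
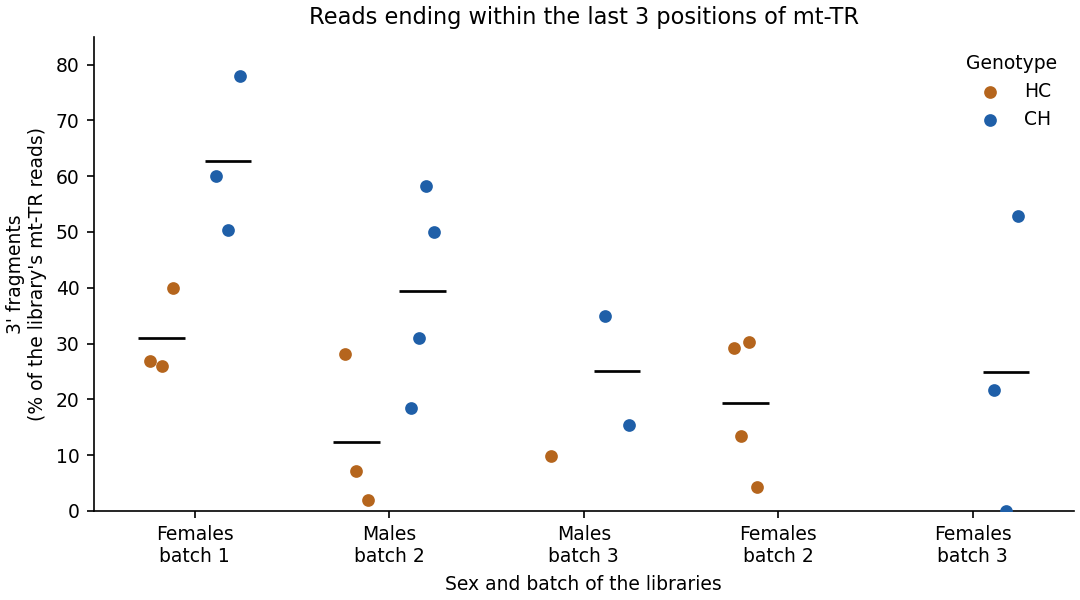
Share of *mt-TR* reads that ended within the last 3 positions of the molecule (vertical axis, % of the library's *mt-TR* reads), by sex and batch (horizontal axis), with 1 point per CH or HC library of at least 10 reads and a line at the mean where a group had more than 1 library. In batch 1 the 3 CH libraries lie between 50.3% and 78.0% and the 3 HC libraries between 25.9% and 39.9%.

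Coverage, the share of reads that span a position averaged over an arm, gave the same contrast arm by arm. Over the anticodon arm it was 61.1%, 58.2% and 41.4% in HC replicates 1, 2 and 3, and 28.2%, 39.2% and 18.45% in CH. The genotypes did not overlap, and CH was lower, with a difference of -24.99 points (28.6% ± 10.4 against 53.6% ± 10.6 in HC, SD, n = 3, exact permutation p = 0.1, adjusted p = 0.2). At position 32, the middle base of the anticodon, 60.6%, 61.9% and 44.96% of HC reads and 27.0%, 40.9% and 19.9% of CH reads covered the molecule.

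Over the T-arm, whose stem and loop hold the ATG repeat, coverage was 47.7%, 52.1% and 53.65% in HC and 62.75%, 61.8% and 69.6% in CH. Here CH was higher by 13.6 points without overlap (51.15% ± 3.06 in HC and 64.7% ± 4.23 in CH, SD, n = 3, exact permutation p = 0.1, adjusted p = 0.2). Coverage of the acceptor 3′ strand and CCA was 29.15%, 25.8% and 39.95% in HC and 60.55%, 52.1% and 77.9% in CH, higher in CH by 31.9 points (31.65% ± 7.38 against 63.5% ± 13.2, SD, n = 3, exact permutation p = 0.1, adjusted p = 0.2). Since coverage at the terminus and the share of 3′ fragments count mostly the same reads, they are not separate evidence. Nor is coverage of the T-arm, since every 3′ fragment started at or before position 56 and so spanned the end of that arm. At its last position, 60, mean coverage was 36.6% in HC and 69.8% in CH. Coverage of the anticodon arm is not separate evidence either. Few 3′ fragments reach back into that arm, so a larger share of them lowers its coverage too. Coverage of either arm among the other reads alone was not computed.

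The lines for the 2 genotypes crossed inside the T-arm. At position 48 the mean coverage was 60.6% in HC and 60.7% in CH, and at position 54 it was 49.3% and 73.3%. The most covered position was 36 in HC replicate 1 (71.9% of reads) and 37 in HC replicate 2 (68.35%), both in the 3′ strand of the anticodon stem. It was 49 in HC replicate 3 (63.9%), and 54, 51 and 54 in CH replicates 1, 2 and 3 (72.0%, 69.1% and 82.7%), all in the T-arm. HC replicate 3 was therefore nearer to CH than the other HC libraries in where its coverage peaked.

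**Figure D2:**
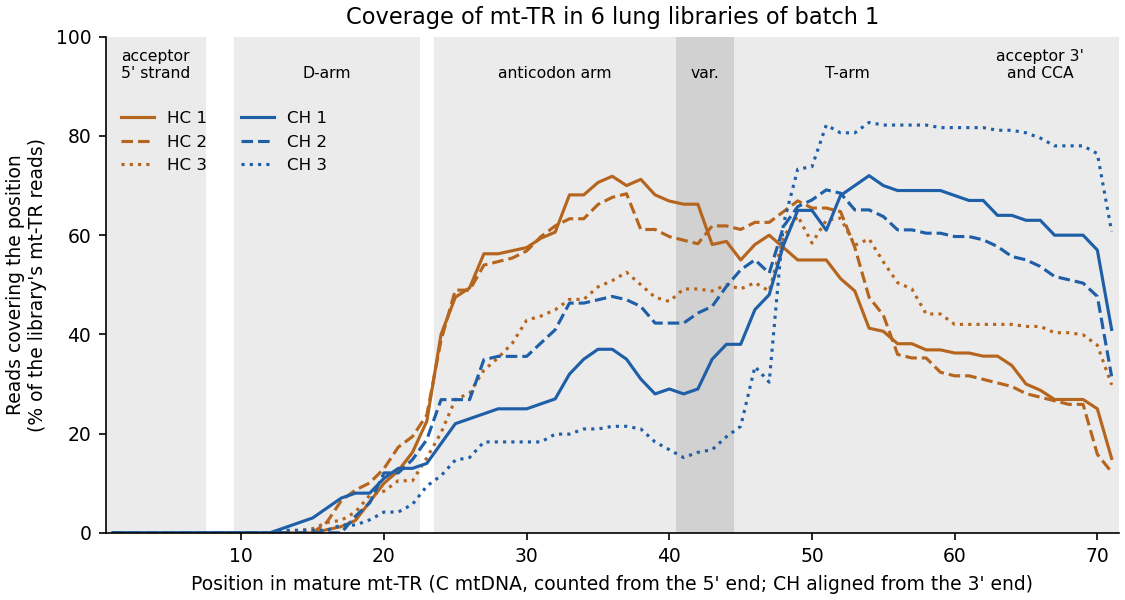
Coverage of *mt-TR* in the 6 libraries of batch 1, as the share of a library's reads that span each position (vertical axis, %) along the mature molecule of C mtDNA (horizontal axis), with the arms shaded and 1 line per library. From position 29 to 44 all 3 HC lines lie above all 3 CH lines, the lines meet near position 48, and from position 52 to the terminus all 3 CH lines lie above all 3 HC lines.

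The D-arm, in which the 2 mtDNA types differ in sequence, was hardly covered in either strain. Its mean coverage was 3.80%, 5.92% and 3.65% in HC and 4.73%, 3.22% and 1.47% in CH, with overlap between the genotypes. Each library was averaged over the arm of its own molecule, 13 positions in HC and 15 in CH (10 to 24 of the H molecule). The longer arm adds positions without reads to CH and lowers its average, here and in every D-arm coverage below. The difference of -1.32 points, which includes this effect of arm length, was within the spread of the libraries (exact permutation p = 0.4, adjusted p = 0.533). Reads that started in the D-arm made up 16.25%, 19.4% and 10.5% of the reads in HC and 13.0%, 14.8% and 5.76% in CH, a difference of -4.22 points that was again within the spread (exact permutation p = 0.4, adjusted p = 0.533). At position 20, close to the 3′ end of the arm, coverage was 4.19% to 12.95% over the 6 libraries. The earliest read began at position 13 in HC and at position 15 of the H molecule in CH.

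Reads that started in the 5′ strand of the anticodon stem, positions 24 to 28, were more frequent than 3′ fragments in HC replicates 1 and 2. Their shares were 33.75%, 30.9% and 20.2% in HC and 11.0%, 16.8% and 8.90% in CH. HC was higher in every library, with means of 28.3% ± 7.17 and 12.2% ± 4.08 (SD, n = 3) and a difference of -16.1 points for CH (exact permutation p = 0.1, adjusted p = 0.2). A larger share of 3′ fragments lowers every other share, so the reads that were not 3′ fragments were also taken alone, in a set of 6 measures chosen after the values had been seen. Among them, 40.5% ± 6.39 started in the anticodon stem in HC and 33.9% ± 6.49 in CH (SD, n = 3), with overlap and a difference of -6.57 points (exact permutation p = 0.3, adjusted over the 6 measures 0.45). When only reads ending at the last base were set aside, the shares were 39.7%, 35.25% and 28.7% in HC and 18.6%, 24.5% and 22.7% in CH, without overlap and with a difference of -12.6 points (exact permutation p = 0.1). Starts in the D-arm made up 22.0% ± 4.37 of them in HC and 29.5% ± 3.16 in CH, also with overlap (exact permutation p = 0.2, adjusted p = 0.45).

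Read lengths overlapped between the strains. Mean length was 24.4, 24.5 and 22.6 nt in HC replicates 1, 2 and 3 and 23.6, 24.8 and 23.8 nt in CH. The means of 23.85 ± 1.07 nt and 24.1 ± 0.607 nt (SD, n = 3) differed by 0.23 nt (exact permutation p = 0.8, adjusted p = 0.873). Median lengths were 24, 24 and 23 nt in HC and 23, 24 and 24 nt in CH. The most frequent length was 24 nt in replicate 3 of both strains, with 37 reads in HC and 49 in CH, and 19, 24, 20 and 21 nt in HC replicates 1 and 2 and CH replicates 1 and 2.

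Reads of 30 nt or more, long enough to reach from the anticodon stem into the T-arm, made up 20.6%, 15.8% and 6.72% in HC and 10.0%, 14.1% and 6.28% in CH. The shares overlapped, and the difference of -4.27 points was within the spread (exact permutation p = 0.4, adjusted p = 0.533). In each strain the share of long reads was lowest in replicate 3. Reads that were not 3′ fragments were 23.7 ± 1.28 nt long on average in HC and 23.4 ± 1.16 nt in CH (SD, n = 3, exact permutation p = 0.9, adjusted p = 0.9 over the 6 measures chosen afterwards).

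**Figure D3:**
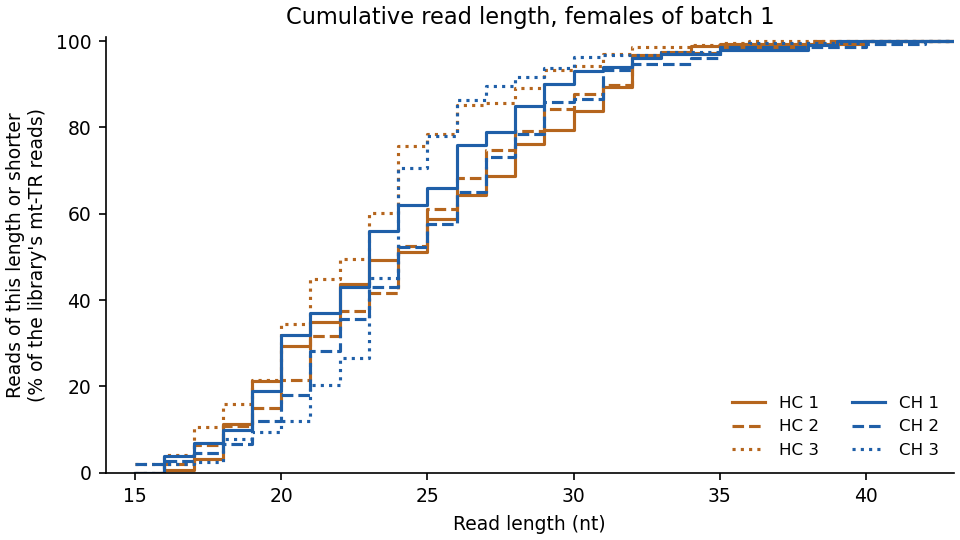
Cumulative distribution of read length (horizontal axis, nt) in the 6 libraries of batch 1 as the share of the library's reads of that length or shorter (vertical axis, %). The lines of HC and CH interleave, with medians between 23 and 24 nt in all 6 libraries.

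The 3′ fragments of both strains began mostly in the T-arm. Their mean start was at position 46.2, 47.3 and 48.6 in HC and 47.4, 46.7 and 47.6 in CH, a difference of -0.12 positions (exact permutation p = 1.0, adjusted p = 1.0). Starts ranged from position 31 to 54 over the HC libraries and from 32 to 56 over the CH libraries. The share of 3′ fragments that started in the T-arm was 58.1%, 72.2% and 90.5% in HC and 76.7%, 73.3% and 89.9% in CH, with a difference of 6.35 points (exact permutation p = 0.5, adjusted p = 0.6). This depended on which ends were counted. Fragments that ended at the last base alone started on average at position 48.5, 49.2 and 48.9 in HC and at 46.9, 47.2 and 47.7 in CH. Every CH library then lay before every HC library, with a difference of -1.60 positions (exact permutation p = 0.1, the lowest that 3 against 3 allows).

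Within the ATG repeat, starts fell on the A and the G of a unit more often than on the T in 5 of the 6 libraries. HC replicate 1 went the other way, with 10 of 43 3′ fragments starting at an A, 11 at a T and 4 at a G. Pooled over the 3 HC libraries, 33.3% of 174 3′ fragments started at an A of the repeat (95% Wilson interval 26.8% to 40.6%), 36.8% at a G (29.97% to 44.2%) and 7.47% at a T (4.42% to 12.4%). Pooled over the 3 CH libraries, 32.75% of 284 started at an A (27.55% to 38.4%), 39.4% at a G (33.9% to 45.2%) and 4.93% at a T (2.96% to 8.10%). These intervals treat pooled reads as independent and leave out the spread between libraries, which was wider. The share at a G in single libraries was 9.30%, 33.3% and 50.5% in HC and 20.0%, 26.7% and 53.7% in CH. Replicate 3 gave 95 of the 174 fragments in HC and 149 of the 284 in CH. The share at a T in single libraries was 25.6%, 5.56% and 0% in HC and 8.33%, 8.00% and 2.01% in CH, so the HC value rested on replicate 1 (exact permutation p = 0.9 between the strains, adjusted p = 0.9). The repeat offers 3 positions of each base to a start, and no cause of the uneven use was tested.

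The single most used start was position 48, a G of the repeat, with 0, 4 and 32 of the 3′ fragments in HC replicates 1, 2 and 3 and 8, 13 and 60 in CH. It stood out in replicate 3 of both strains and was absent from HC replicate 1. Position 46 was used by 6, 6 and 6 fragments in HC and by 10, 9 and 23 in CH, and position 49 by 2, 3 and 18 in HC and by 8, 8 and 23 in CH. Position 44, at the last base of the variable loop, was used by 9, 4 and 3 fragments in HC and by 3, 11 and 5 in CH. Starts at position 52 numbered 2, 2 and 13 in HC and 9, 3 and 0 in CH. Replicate 3 thus had the same leading start in both strains, but position 48 also led in CH replicate 2, with 13 fragments against 11 at position 44. Replicate 1 and replicate 2 of both strains spread their starts over the repeat and the bases before it.

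**Figure D4:**
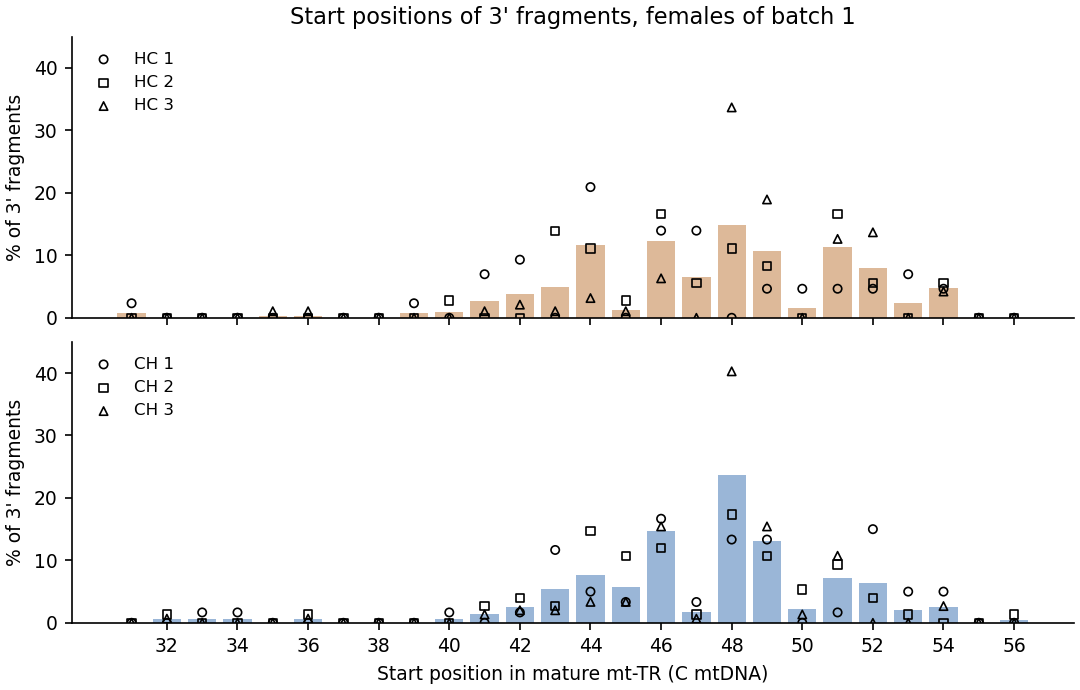
Start positions of 3′ fragments (horizontal axis, position in mature *mt-TR* of C mtDNA) as a share of the library's 3′ fragments (vertical axis, %), HC above and CH below, with a bar for the mean of the 3 libraries of batch 1 and a symbol for each library. In both strains most starts lie between positions 44 and 54. Position 48 is the leading start in replicate 3 of HC and of CH, and also in CH replicate 2.

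The 3′ fragments were mostly complete except in HC replicate 2, where 47.2% ended at the last base. Those ending at the last base of the CCA end numbered 24, 17 and 71 in HC and 41, 47 and 116 in CH, those 1 nt shorter 16, 5 and 19 in HC and 16, 24 and 30 in CH, and those 2 nt shorter 3, 14 and 5 in HC and 3, 4 and 3 in CH. Complete ends made up 59.3% ± 14.1 of the 3′ fragments in HC and 69.6% ± 7.67 in CH (SD, n = 3), with overlap (exact permutation p = 0.3, adjusted p = 0.45 over the 6 measures chosen afterwards). HC replicate 2 was the library with the most ends 2 nt short of the terminus.

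Few fragments recurred across libraries. Of the 250 distinct sequences in batch 1, 147 were counted in 1 library only. In all 3 CH libraries 14 fragments recurred, of which 10 were 3′ fragments. In all 3 HC libraries 15 recurred, of which 6 were 3′ fragments. The libraries differed in depth and recurrence rises with depth, so the counts of 14 and 15 do not show that the strains were alike in recurrence. Only 3 fragments were counted in all 6 libraries, the pieces from 46 to 71 and from 49 to 71 shown above and an anticodon piece from position 24 to 44, chosen after its values were seen. It spans the anticodon arm and the variable loop.
Positions 24 to 44 (chrM:9831-9851, + strand, within *mt-Tr*): aatgattTCGactcattagat
The 14 fragments of CH held 41%, 34.2% and 62.3% of the CH reads and 13.1%, 9.35% and 26.5% of the HC reads. The 15 of HC held 21.9%, 23.7% and 25.6% of the HC reads and 25%, 17.45% and 29.8% of the CH reads. These lists were picked from the same counts, so the shares describe them and test nothing. The larger number of 3′ fragments in the CH list stands beside the larger share of 3′ fragments among all distinct sequences of CH, given above, and is not a separate result. With only fragments of at least 2 reads per library, 6 recurred in CH, 4 in HC and 1 in all 6.

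The 11 fragments that recurred in CH and not in HC included 8 3′ fragments, and the 12 that recurred in HC and not in CH included 4. The other HC pieces covered positions 20 to 51, 24 to 51, 24 to 52, 25 to 46, 25 to 47, 25 to 52, 27 to 52 and 33 to 64. Most of them began in the anticodon stem and several stopped at position 51 or 52, inside the ATG repeat. The other CH pieces covered positions 20 to 38, 32 to 66 and 48 to 66.

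Pairs of HC libraries shared 26 to 29 fragments, pairs of CH libraries 17 to 23, and pairs across the strains 15 to 29. These counts rise with the number of distinct sequences in a library, which was 81 to 97 in HC and 51 to 69 in CH. When each library was reduced to 100 reads by exact rarefaction, the expected number of distinct fragments was 65.2, 66.1 and 57.7 in HC and 55.0, 55.5 and 35.5 in CH. CH libraries were less diverse at equal depth without overlap, with a difference of -14.3 fragments (48.7 ± 11.4 against 63.0 ± 4.63 in HC, SD, n = 3, exact permutation p = 0.1, adjusted p = 0.2). Without CH replicate 3, in which the piece from 48 to 71 alone had 45 of 191 reads, the difference was -7.75 fragments (exact permutation p = 0.2). Without CH replicate 1, the smallest library, the others were reduced to 139 reads. The difference was then -22.4 (exact permutation p = 0.1), which is not on the scale of the values at 100 reads.

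**Figure D5:**
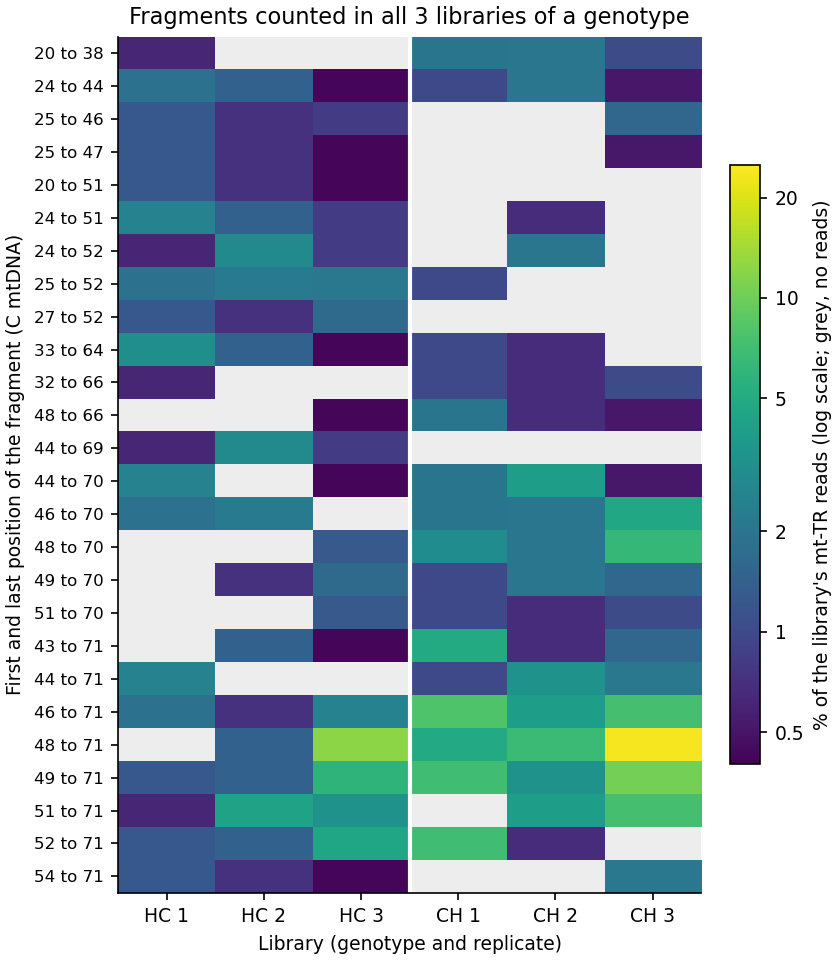
The 26 fragments counted in all 3 libraries of at least 1 strain, by first and last position in the molecule (rows, ordered by end position), with their share of each library's reads (colour, %, log scale, grey for no reads) in the 6 libraries of batch 1 (columns). Fragments that end at positions 70 and 71 carry most of the recurrent reads in CH, and several that end at 51 and 52 recur in HC only.

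Of the named fragments, the piece from 46 to 71 separated the strains in every library. Its reads numbered 3, 1 and 6 in HC and 8, 6 and 14 in CH, which was 1.88%, 0.719% and 2.52% of the HC reads and 8.00%, 4.03% and 7.33% of the CH reads. The most frequent piece, from 48 to 71, had 0, 2 and 29 reads in HC and 5, 10 and 45 in CH, so HC replicate 3 lay above CH replicates 1 and 2 in reads. Its CC-ended form, from 48 to 70, had 0, 0 and 3 reads in HC and 3, 3 and 12 in CH.

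The piece from 49 to 71 had 2, 2 and 14 reads in HC and 7, 5 and 20 in CH. The pieces from 51 to 71 (1, 6 and 8 reads in HC, 0, 6 and 14 in CH) and from 52 to 71 (2, 2 and 11 in HC, 7, 1 and 0 in CH) recurred in HC only, and each was missing from 1 CH library. The piece from 46 to 70 had 3, 3 and 0 reads in HC and 2, 3 and 9 in CH. These pieces overlap in sequence and differ by few bases at either end, so they are not independent of each other.

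The piece from 25 to 52, an internal tRF that holds all of the anticodon arm but its first base, went the other way. It had 3, 3 and 5 reads in HC (1.88%, 2.16% and 2.10%) and 1, 0 and 0 reads in CH (1.00% in replicate 1), with no overlap. edgeR's quasi-likelihood test over the 17 fragments with at least 10 reads called 0 of them (0.0%) at a Benjamini-Hochberg adjusted p under 0.05, and 1 was under 0.05 before adjustment. That 1 was the piece from 25 to 52, with a log2 fold change of -3.37 in CH against HC and an adjusted p of 0.499 by edgeR. The scaling of libraries in edgeR (TMM) had factors of 0.639 to 1.01 in HC and 1.06 to 1.56 in CH. The fold change is therefore not on the scale of the shares. By library size alone, edgeR gave -2.71 for this piece (adjusted p = 0.59) and also called 0 fragments. DESeq2 called 0 and had 0 under 0.05 before adjustment. In share of reads, 3 of the 17 fragments (17.6%) did not overlap between the strains, the pieces from 46 to 71 and from 48 to 70, which were higher in CH (2 of 17, 11.8%), and the piece from 25 to 52, which was lower (1 of 17, 5.88%).

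Outside batch 1, the named 3′ fragments did not keep one direction. The piece from 48 to 71 had 7 of 257 reads in the HC females of batch 2 (2.72%) and 0 of 61 in the CH females of batch 3, and 8 of 1626 in HC males (0.492%) and 2 of 308 in CH males (0.649%). The piece from 46 to 71 had 2 of 257 reads in these HC females (0.778%) and 9 of 61 in these CH females (14.75%), all 9 in 1 library, and 0.554% of the reads of HC males and 3.90% of those of CH males. The pieces from 49 to 71, 51 to 71, 52 to 71 and 46 to 70 were not counted in these CH females and were each counted in these HC females, while in males their pooled shares were higher in CH. The piece from 48 to 70 had a higher pooled share in CH in both sexes. These shares pool libraries of unequal depth, and the females lie in different batches.

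The piece from 25 to 52 was counted outside batch 1 in HC and not in CH. It had 0, 7, 1 and 2 reads in the 4 HC females of batch 2, which held 72, 105, 33 and 47 reads. HC males had 10 of their 1626 reads in it, 9 of them in HC male replicate 3, the deepest library with 1280 reads. CH males had 0 of 308 reads, and the CH females of batch 3 had 0 of 61. The depth of the CH libraries was low, and no test was run on this fragment outside batch 1.

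All ends at position 52 were counted next, a choice made after the values were seen. They made up 4.38%, 7.19% and 5.46% of the reads in HC (7, 10 and 13 reads) and 1.00%, 4.03% and 0% in CH (1, 6 and 0 reads), where 0 of 191 reads allows up to 1.57%. CH was lower without overlap, with a difference of -4.00 points (1.68% ± 2.10 against 5.68% ± 1.42 in HC, SD, n = 3, exact permutation p = 0.1, adjusted p = 0.45 over the 6 measures). The nearest libraries were HC replicate 1 at 4.38% (7 reads) and CH replicate 2 at 4.03% (6 reads). A larger share of 3′ fragments lowers this share too, and ends at position 52 were not taken among the other reads alone. Males did not show one direction: in batch 2 the mean was 3.41% in 3 HC libraries and 1.23% in 4 CH libraries, and in batch 3 it was 2.44% in 1 HC library and 11.7% in 2 CH libraries.

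The contrast of CH with HC was then set beside the male libraries of the later batches, compared within batch. Over 6 CH and 4 HC male libraries of at least 10 reads, the share of 3′ fragments was 34.7% ± 17.0 in CH and 11.75% ± 11.4 in HC (SD), with overlap. The difference within batch was 23.8 points (exact permutation p = 0.0571, adjusted p = 0.231 over 11 measures). By batch it was 27.0 points in batch 2 (39.4% in 4 CH libraries and 12.4% in 3 HC libraries) and 15.4 points in batch 3 (25.15% in 2 CH libraries and 9.76% in 1 HC library). Coverage of the anticodon arm in males was lower in CH, with a difference of -23.6 points (exact permutation p = 0.0952, adjusted p = 0.231), and T-arm coverage was higher by 16.9 points (exact permutation p = 0.0857, adjusted p = 0.231). In males, no measure passed 0.05 after adjustment. Coverage of the acceptor 3′ strand and CCA did so before it (24.05 points higher in CH, exact permutation p = 0.0476, adjusted p = 0.231).

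Over all strata of batch and sex that hold both strains, 9 CH and 7 HC libraries that include the 6 of batch 1, the share of 3′ fragments was 26.9 points higher in CH (exact permutation p = 0.00381 with labels permuted within stratum, adjusted p = 0.0229 over 12 measures). Coverage of the acceptor 3′ strand and CCA was 27.1 points higher (exact permutation p = 0.00381, adjusted p = 0.0229). These were the 2 measures that passed after adjustment, and they rest on largely the same reads. Coverage of the anticodon arm was lower in CH, with a difference of -24.2 points (exact permutation p = 0.0129, adjusted p = 0.0514), starts in the anticodon stem differed by -17.03 points (exact permutation p = 0.0281, adjusted p = 0.0674), and T-arm coverage was 15.6 points higher (exact permutation p = 0.0257, adjusted p = 0.0674). Mean length differed by 0.43 nt (exact permutation p = 0.378, adjusted p = 0.503), D-arm coverage by -1.76 points (exact permutation p = 0.137, adjusted p = 0.235) and the mean start of 3′ fragments by 0.098 positions (exact permutation p = 0.848, adjusted p = 0.848). The D-arm value again includes the longer arm of CH. None of 11 tests of whether the contrast differed between the females of batch 1 and the males passed 0.05, with an adjusted p of 0.944 in each.

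Batch 1 was also compared with later females of the same strains. In the share of 3′ fragments and in anticodon-arm and T-arm coverage, its difference from them ran the same way as that of CH from HC. The later libraries were shallower, with 72, 105, 33 and 47 reads in the HC females of batch 2 and 23, 21, 17 and 0 in the CH females of batch 3. Within genotype, 3′ fragments were 23.9 points more frequent in the 6 libraries of batch 1 than in the 7 later libraries of at least 10 reads (means 46.8% and 21.7%, exact permutation p = 0.0314, adjusted p = 0.0754). Coverage of the anticodon arm was lower in batch 1, with a difference of -22.7 points (exact permutation p = 0.0186, adjusted p = 0.0743), and starts in the anticodon stem differed by -17.4 points (exact permutation p = 0.0157, adjusted p = 0.0743). T-arm coverage was 13.7 points higher (exact permutation p = 0.0829, adjusted p = 0.166), and mean length differed by -0.017 nt (exact permutation p = 0.981, adjusted p = 0.981). Distinct fragments at equal depth went the other way from CH against HC. At 17 reads per library they were 3.74 higher in batch 1 (exact permutation p = 0.00857, adjusted p = 0.0743). The mean start of 3′ fragments (0.597 positions) and their share starting in the T-arm (-9.12 points) also did, within the spread (exact permutation p = 0.446 and 0.363). No measure passed 0.05 after adjustment. Later HC and CH females lie in different batches, so the strains could not be compared among females outside batch 1.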

How the data were processed

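The values deposited by the authors are raw counts, 1 per unique *mt-TR* sequence and library, with no normalization. Per the labels, small RNA was isolated with mirVana and libraries were made by single-adapter circularization. The submitters' processing notes name FastQC 0.12.1, UMI-tools 1.1.6, cutadapt 5.0, BWA 0.7.18, Bowtie 1.3.1 and mm10. The methods describe trimming to 16 to 100 nt and exact mapping to *mt-TR* of the own mtDNA type, but which steps were applied to the lung libraries is not stated, and batch 1 holds 8 reads of 15 nt. The methods also describe removal of duplicates by molecular identifiers, again without saying whether this covered the lung libraries, so reads may not be independent molecules. Whether the sequences also match elsewhere in mm10 was not examined.

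Sequences were placed on mature *mt-TR* by exact match (GENCODE M21 and the study's sequence list), and all stems of both types could be paired fully. Each library gave 12 measures, compared by exact two-sided permutation tests over libraries with Benjamini-Hochberg adjustment. Libraries outside batch 1 needed at least 10 reads. Fragments with at least 10 reads in the 6 libraries were tested with edgeR 4.0.16 (TMM, quasi-likelihood, factors 0.639 to 1.56) in R 4.3.3, with DESeq2 1.42.0 as an alternative. Scripts ran in Python 3.11.15 with scipy 1.17.1 and were tested on simulated data. Named fragments were the 5 with the highest mean share over the 6 libraries and, among those counted in all 3 libraries of one strain only, the 3 with the highest mean share in each strain. Members, measures and lists were chosen with earlier results of these data known.

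Deviations from the group means, over the 17 fragments with at least 10 reads, correlated at 0.189, 0.212 and 0.379 between CH and HC libraries numbered 1, 2 and 3. Libraries of different numbers were not compared, so these weak values do not show that the number marks pairs. The replicate number was treated as a pairing in an alternative fit only. The labels do not say what the number marks.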

Additional observations from a re-analysis of the deposited data

Results flagged for a closer look

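One library stood apart from its group. In CH female replicate 4, a library of batch 3 with 23 reads, 47.8% of the reads started in the D-arm, against 19.05% in the next of the 6 CH female libraries of at least 10 reads. The gap exceeded Dixon's 95% critical value. It was 1 of 44 combinations of a group and a measure examined, of which about 2.2 would exceed the value by chance, and the library is not in batch 1.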

How the results depend on the processing

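In batch 1, no result with groups that did not overlap changed direction under any alternative, but counting each distinct sequence once lowered the differences to 16.3 points for 3′ fragments, 17.9 for acceptor 3′ coverage, -11.65 for the anticodon arm, -7.12 for anticodon-stem starts, 7.70 for the T-arm and -2.53 for ends at position 52. It turned the difference in reads of 30 nt or more to 1.48 points, in 3′ fragments starting in the T-arm to -2.22, in starts at a T of the repeat to 2.94 and in the length of the other reads to 0.224 nt, and with ends at the last base only the T-arm starts gave -5.45, the mean start -1.60 positions and anticodon-stem starts among the other reads -12.6. Mean start of 3′ fragments turned to -0.384 positions in males and -0.507 over all strata with distinct sequences, to -0.0276 and -0.0639 with at least 20 reads per library, and to -0.0786 between batches with distinct sequences. With at least 20 reads, reads of 30 nt or more over all strata gave -0.189 points, and mean length between batches gave 0.141 nt, or 0.0430 nt with reads of 16 nt or more. The differences that turned were all within the spread of the libraries. Before adjustment, acceptor 3′ coverage in males fell to 17.7 points (exact permutation p = 0.0762) with distinct sequences and 21.0 (p = 0.0833) with 20 reads. T-arm coverage over all strata fell to 8.55 (exact permutation p = 0.0805) with distinct sequences, and anticodon-stem starts to -15.6 (p = 0.05) with 20 reads. Distinct fragments at equal depth over all strata gave -4.095 (exact permutation p = 0.0342) with at least 20 reads per library. That value was taken at 26 reads in place of 10, so it is not on the scale of the main one. The share of 3′ fragments over all strata stayed under 0.05 in every alternative. The cause of these shifts was not tested. Recurrent fragments numbered 7.66 in HC and 1.64 in all 6 libraries on rarefaction to the smallest library, and 6 in CH, 4 in HC and 1 in all 6 with 2 reads required.

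Leaving out each library in turn gave, in batch 1, -1.40 to 14.8 points for T-arm starts, -9.45 to 3.34 for starts at a T, -1.07 to 0.160 nt for the other reads, -0.387 to 0.549 nt for length, -0.700 to 0.491 for the mean start, -8.10 to -1.15 for long reads, -6.66 to -1.51 for D-arm starts, -2.11 to -0.480 for D-arm coverage (exact permutation p from 0.1 to 0.8), 4.34 to 18.1 for complete CCA ends (p from 0.1 to 0.6) and -10.03 to -3.36 for anticodon-stem starts among the other reads. In males it gave 19.1 to 28.4 for 3′ fragments (exact permutation p from 0.0444 to 0.133), 19.4 to 29.3 for acceptor 3′ coverage (p from 0.0333 to 0.114), -0.213 to 1.08 for the mean start, -6.16 to 0.975 for D-arm starts, -0.128 to 0.942 nt for length and -17.7 to 11.9 for T-arm starts. Over all strata it gave -0.171 to 0.519 for the mean start, -1.68 to 2.22 for long reads, -2.36 to -1.28 for D-arm coverage, -20.1 to -13.9 for anticodon-stem starts, 13.4 to 19.0 for T-arm coverage, -4.095 to -0.513 for distinct fragments and -7.42 to 9.31 for T-arm starts. The -4.095 for distinct fragments was again taken at 26 reads in place of 10. Between batches it gave -0.388 to 0.434 nt for length, -1.57 to 1.71 for long reads, 17.9 to 27.2 for acceptor 3′ coverage, 17.3 to 28.2 for 3′ fragments, -20.1 to -12.4 for anticodon-stem starts, -12.2 to -4.54 for D-arm starts, 9.84 to 16.8 for T-arm coverage and -3.13 to -1.01 for D-arm coverage.

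With the replicate block, the exact test over pairs cannot go below 0.25, and the difference in 3′ fragments of 31.9 points gave p = 0.25. It changed no call. edgeR and DESeq2 called 0 fragments in each alternative that gave a value, with 0 to 4 under 0.05 before adjustment, the 4 without a filter on low counts (250 fragments). filterByExpr kept 1 fragment and could not be fitted. Counts of 100 to 238 reads per library limit every share.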
